A study of Homo sapiens with 10 samples.

Results

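The genes described here encode the ATR-CHK1 replication stress signaling pathway. They were chosen as a list of 10 gene symbols, ATR, ATRIP, CHEK1, TOPBP1, CLSPN, TIMELESS, TIPIN, ETAA1, WEE1 and RAD9A, which were joined to the deposited tables through their Ensembl identifiers. All 10 were among the 63299 genes in the tables, and 9 of them were among the 16143 genes with enough counts to be tested. RNA-sequencing of polyadenylated RNA was performed in U2OS cells (written U20S in the labels), a human osteosarcoma cell line, 48 h after knockdown with pooled siRNAs. The siCtrl group is the control knockdown and the siDDX41 group is the knockdown of the DEAD box helicase DDX41, with 5 libraries each. All libraries come from this cell line, and the labels do not say whether the replicates were separate cultures, so that p-values measure the spread between these samples. Total counts per library lay between 21807041 and 24896398.

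When a replication fork stalls, stretches of single-stranded DNA coated by RPA recruit the kinase ATR through its partner ATRIP, and the activators TOPBP1 and ETAA1 then switch the kinase on. Mediator proteins at the fork, among them claspin and the TIMELESS-TIPIN pair, bring the kinase CHK1 to ATR, and CHK1 holds back CDK activity, origin firing and entry into mitosis. Much of this control acts through phosphorylation and protein turnover, which RNA-sequencing does not measure.

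Values are given as CPM, the counts of a gene scaled to a fixed library size with TMM factors. Groups were compared with the quasi-likelihood test of edgeR across all tested genes, and a gene was called higher or lower at a Benjamini-Hochberg adjusted p-value under 0.01. DDX41 (ENSG00000183258.11, chr5:177511577-177516961, minus strand) was measured at 49.1, 49.4, 47.3, 47.2 and 50.5 CPM in siCtrl replicates 1 to 5 and at 11.5, 13.7, 12.4, 11.2 and 12.3 CPM in siDDX41 replicates 1 to 5. Each knockdown library was below each control library, as the labels say. The log2 fold change was -1.99 (SE 0.05, edgeR adjusted p = 4.47e-24). By an exact permutation test of log2 CPM, two-sided, p was 0.00794, which no arrangement of 5 and 5 libraries can undercut.

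The labelled cell line was checked against marker genes. The 6 mesenchymal and osteosarcoma genes were all tested and summed to between 7325.9 and 7748.7 CPM in siCtrl and between 7686.8 and 7931.4 CPM in siDDX41 libraries, with SPARC (2750 to 3310 CPM) and VIM (2260 to 2540 CPM) the most abundant. Of these genes 3 were called higher and 2 lower, among them COL5A1 with a log2 fold change of 0.69 (SE 0.04, edgeR adjusted p = 2.35e-13) and the osteoblast lineage gene RUNX2 with -0.40 (SE 0.04, edgeR adjusted p = 2.24e-09). For comparison, 62.4% of all tested genes were called in either direction. FN1 was not called (edgeR adjusted p = 0.0211), but was called lower without siCtrl replicate 2 (9.29e-04) or siCtrl replicate 3 (2.52e-04). The epithelial cadherin gene CDH1 was between 0.736 and 1.29 CPM, and the T-cell gene CD3E had 0 counts in all 10 libraries. Of the 5 blood cell genes 2 were tested, and their sum was 30.5, 28.4, 31.5, 32.3 and 31.0 CPM in siCtrl replicates 1 to 5 and 4.8, 5.5, 3.9, 5.8 and 6.0 CPM in siDDX41 replicates 1 to 5. Nearly all of it was CD34, a gene also used as a progenitor marker, with a log2 fold change of -2.71 (SE 0.08, edgeR adjusted p = 5.27e-20), while the pan-leukocyte gene PTPRC was at most at 0.639 CPM. The 4 epithelial genes, with CLDN4 the most abundant, summed to 41.5, 44.9, 40.6, 43.5 and 45.8 CPM in siCtrl and to 22.2, 24.8, 23.1, 21.8 and 23.3 CPM in siDDX41 replicates 1 to 5, and 2 of them, KRT5 and CLDN4, fell. Of the 3 endothelial genes 2 were tested, and both fell, from sums of 4.5 to 5.3 CPM to sums of 1.5 to 2.9 CPM, with VWF the more abundant. The part of these marker changes in the results on the ATR-CHK1 genes was not tested.

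Of the 9 tested ATR-CHK1 genes, 2 (ATR and WEE1) were higher and 6 (CHEK1, TOPBP1, CLSPN, TIMELESS, ETAA1 and RAD9A) were lower after DDX41 knockdown, TIPIN was not called, and ATRIP had too few counts. Over all tested genes, 30.3% were called higher, 32.1% lower and 62.4% in either direction, so a call by itself is common in these data. The groups did not overlap in 6 of the 9 genes, against 55.9% of all tested genes. The median log2 fold change of the 9 genes was -0.12, and that of all tested genes was -0.0014. Their median absolute log2 fold change was 0.18, which is below the 0.28 of all tested genes, and most of the changes were therefore small. With an absolute log2 fold change over 0.25 also required, ATR was the 1 gene called higher, and CLSPN and RAD9A were the 2 called lower. At that setting 21.1% of all tested genes were called higher and 25.4% lower.

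**Figure D1:**
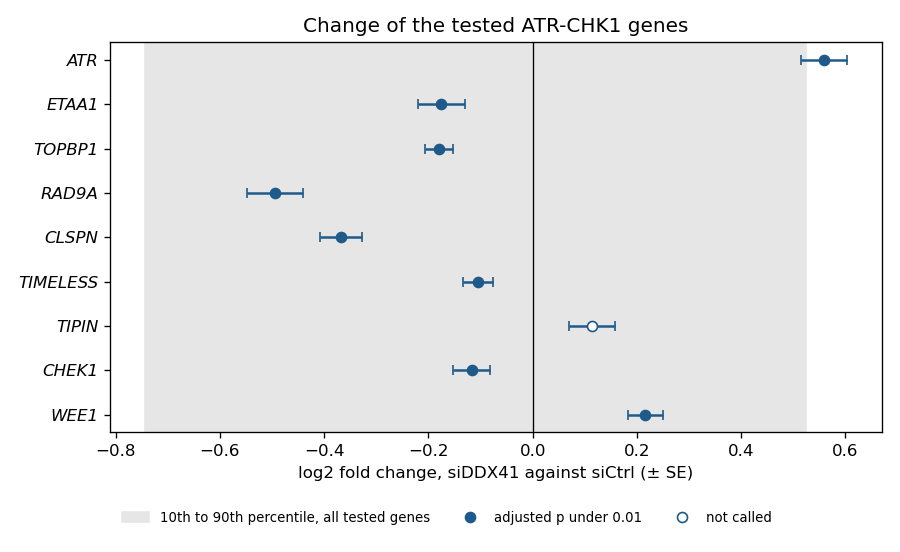
Log2 fold change of siDDX41 against siCtrl (x axis) of the 9 tested genes with the standard error as bars, filled where the adjusted p-value was under 0.01. The grey band spans the 10th to the 90th percentile of all tested genes, from -0.74 to 0.52, and ATR alone lies above it.

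ATR (ENSG00000175054.14), the apical kinase of the pathway, lies at chr3:142449007-142578733 on the minus strand of GRCh38, and its canonical transcript has 47 exons and 8158 bases. It was measured at 37.9, 40.4, 46.6, 41.6 and 38.4 CPM in siCtrl replicates 1 to 5. In siDDX41 replicates 1 to 5 it was at 59.8, 59.5, 63.4, 59.1 and 59.9 CPM. Replicate 3 was the highest library in both groups, and the lowest knockdown library was well above the highest control library. ATR rose from 41.0 ± 3.48 to 60.3 ± 1.75 CPM (SD, n = 5 each), 1.47-fold, with a log2 fold change of 0.56 (SE 0.04, edgeR adjusted p = 6.46e-12). Ordered from the lowest to the highest log2 fold change, ATR stood at 91.1% of all tested genes. Over the exons of all its annotated transcripts together, 7.52% of the bases are shared with the pseudogene EIF2AK1P1 on the other strand. This pseudogene had between 0 and 5 counts per library.

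The promoter of ATR is printed because ATR had the largest change among the tested genes of the pathway. Promoters were taken from RefSeq (GRCh38.p14) as 250 bases before to 50 bases after a gene's start. In the promoter set used here 9 of the 10 genes matched by symbol, and WEE1 had no entry in it. The sequence below is chr3:142578684-142578983 on the minus strand, with capitals at the letters GGGCGG, a GC box, on either strand. It holds 2 matches, both in the reverse direction.
ATR promoter: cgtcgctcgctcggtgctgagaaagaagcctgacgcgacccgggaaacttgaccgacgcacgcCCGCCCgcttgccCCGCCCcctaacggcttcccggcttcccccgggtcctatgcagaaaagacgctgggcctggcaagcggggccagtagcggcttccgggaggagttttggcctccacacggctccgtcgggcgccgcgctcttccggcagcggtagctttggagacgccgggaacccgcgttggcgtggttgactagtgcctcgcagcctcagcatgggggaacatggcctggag
The letters GGGCGG occur in 45.0% of all 35116 promoters and in the promoters of 75.2% of the tested genes with an entry, and they occur in all 9 matched genes of the pathway. The letters CCAAT, searched on both strands, occur in 34.6% of all promoters, in the promoters of 42.6% of the tested genes with an entry and in 7 of the 9 genes, with ATR and TOPBP1 the genes without them in this window.

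ATRIP (ENSG00000164053.18, chr3:48446710-48467645, plus strand), the obligate partner that ties ATR to RPA, had 10, 0, 5, 6 and 2 counts in siCtrl replicates 1 to 5. It had 3, 4, 5, 3 and 8 counts in siDDX41 replicates 1 to 5. Both groups summed to 23 counts, and with so few counts a difference was not detectable. The exons of TREX1, a DNA exonuclease gene on the same strand, lie wholly inside those of ATRIP and make up 26.7% of ATRIP's exon bases, and TREX1 is listed at 0 counts in all 10 libraries. How reads in shared exons were assigned is not given in the sources used here, and the counts of ATRIP are therefore no measure of its transcript level.

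The 3 genes whose profile over the 10 libraries was closest to ATR, by Euclidean distance between centred log2 CPM, were HTT (distance 0.128), RAPGEF2 (0.138) and DIXDC1 (0.166), among 16115 genes compared. HTT encodes huntingtin, RAPGEF2 an exchange factor for Rap GTPases and DIXDC1 a DIX domain protein of Wnt signaling. Their log2 fold changes were 0.58, 0.62 and 0.54. Values near that of ATR follow from the choice, since the distance includes the difference between the groups. The canonical transcripts of HTT and RAPGEF2 have 13472 and 8101 bases and that of DIXDC1 has 5826, and long transcripts were therefore examined, after these values were seen. In the 1081 genes with a canonical transcript of at least 8000 bases and a mean of at least 5 CPM, 44.8% were called higher and 29.5% lower, with a median log2 fold change of 0.09. Over all 16143 tested genes, without this floor of 5 CPM, 30.3% were called higher and 32.1% lower. The shares of all genes at the same floor were not computed. ATR stood at 89.4% of the order of log2 fold changes among these long genes and CLSPN, with 8512 bases, at 15.9%. Long transcripts also varied among the control libraries. In siCtrl replicate 3 their median deviation from the group mean was 0.06 on the log2 scale, where ATR deviated by 0.19 and CLSPN by 0.14, while the 2559 genes with a canonical transcript under 2000 bases had a median of -0.04. In siDDX41 replicate 2 these medians were 0.032 and -0.027, but ATR deviated by -0.02 and CLSPN by -0.085. In siDDX41 replicate 3 ATR deviated by 0.072 and CLSPN by 0.073, where the median of the long transcripts was 0.009. Without siCtrl replicate 3 the log2 fold change was 0.61 for ATR and -0.33 for CLSPN, with edgeR adjusted p = 4.38e-15 and 2.65e-09. The part of transcript length in the change of ATR was not tested further.

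**Figure D2:**
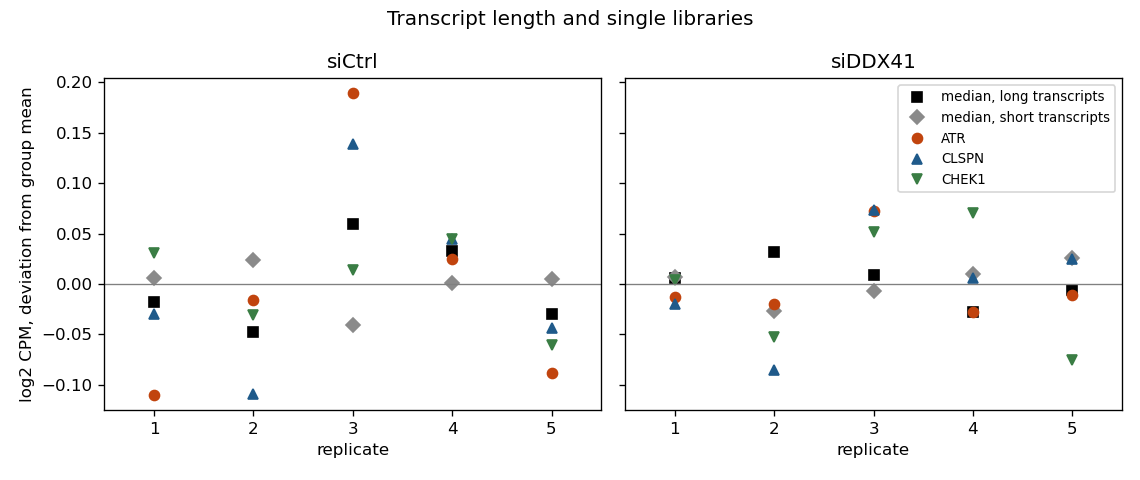
Deviation from the group mean in log2 CPM (y axis) in each replicate (x axis) of siCtrl (left) and siDDX41 (right), as the median of 1081 genes with long transcripts, the median of 2559 genes with short transcripts, and single values of ATR, CLSPN and CHEK1. In siCtrl replicate 3 the long transcripts, ATR and CLSPN lie above 0 and the short transcripts below it.

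The activators of ATR were both lower after DDX41 knockdown. TOPBP1 (ENSG00000163781.12, chr3:133598175-133662380, minus strand), which carries an ATR-activating domain and binds the RAD9A clamp, was at 199, 192, 195, 200.0 and 189 CPM in siCtrl replicates 1 to 5 and at 174, 167, 173, 177 and 169.7 CPM in siDDX41 replicates 1 to 5. The ranges of the groups were apart, with replicate 4 the highest library in both. Its log2 fold change was -0.18 (SE 0.03, edgeR adjusted p = 1.05e-06), a decrease of 11.7%. ETAA1 (ENSG00000143971.7, chr2:67397322-67412089, plus strand) binds RPA and activates ATR independently of TOPBP1. It was at 42.6, 37.7, 40.0, 40.4 and 38.9 CPM in siCtrl and at 34.0, 37.3, 35.1, 38.0 and 32.4 CPM in siDDX41 replicates 1 to 5. The groups touched, since siDDX41 replicate 4 was above siCtrl replicate 2. ETAA1 had a log2 fold change of -0.18 (SE 0.04, edgeR adjusted p = 9.97e-04).

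RAD9A encodes a subunit of the 9-1-1 clamp, which is loaded at junctions of single- and double-stranded DNA and brings TOPBP1 to ATR. The gene (ENSG00000172613.7) is annotated at chr11:67317871-67398410 on the plus strand. It was at 23.9, 24.4, 23.3, 21.6 and 25.1 CPM in siCtrl replicates 1 to 5 and at 18.5, 16.0, 16.5, 16.1 and 16.9 CPM in siDDX41 replicates 1 to 5. The groups were apart, and siDDX41 replicate 1 was the highest knockdown library. RAD9A fell from 23.6 ± 1.34 to 16.8 ± 1.03 CPM (SD, n = 5 each), with a log2 fold change of -0.49 (SE 0.05, edgeR adjusted p = 1.88e-09), the largest decrease among the 9 genes. Its exons share 5.52% of their bases with PPP1CA on the other strand, a phosphatase gene with 239 CPM in siCtrl and 195 CPM in siDDX41 libraries and a log2 fold change of -0.29 (edgeR adjusted p = 2.36e-10). The strand setting of the counting is not given in the sources used here, so reads from these shared bases cannot be told apart.

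Of the 12 genes for single-stranded DNA binding, the clamp and its loading, 11 were tested, of which 2 were higher and 5 lower, with a median log2 fold change of 0.05. The share called in this list was 63.6%, near the 62.4% of all tested genes. Without siDDX41 replicate 2 the number called higher was 4. RHNO1, which joins the 9-1-1 clamp to TOPBP1, was at 139, 131, 134, 138 and 132 CPM in siCtrl and at 72.2, 76.2, 69.8, 80.7 and 79.9 CPM in siDDX41 replicates 1 to 5. The groups were far apart, and the log2 fold change was -0.83 (SE 0.04, edgeR adjusted p = 1.85e-18), larger than that of any tested ATR-CHK1 gene. RFC3, a subunit of the clamp loader, had a log2 fold change of -0.42 (SE 0.04, edgeR adjusted p = 1.57e-09). Of the clamp partners of RAD9A, RAD1 fell from 74.9 ± 1.85 to 64.3 ± 2.33 CPM (SD, n = 5 each; log2 fold change -0.22, SE 0.03, edgeR adjusted p = 1.00e-06). HUS1 rose from 31.5 ± 1.29 to 38.1 ± 2.01 CPM (SD, n = 5 each; log2 fold change 0.28, SE 0.04, edgeR adjusted p = 1.82e-06). The large RPA subunit RPA1 rose slightly, with a log2 fold change of 0.17 (SE 0.03, edgeR adjusted p = 1.01e-06). The clamp loader gene RAD17 had between 37 and 62 counts per library, and its exons overlap those of TAF9 and AK6, each listed at 0 counts. RAD17 is among the 11 tested genes, with a log2 fold change of 0.09, and was not called (edgeR adjusted p = 0.57). How reads in shared exons were assigned is not given, so the counts of RAD17 may not measure its transcript level. Without RAD17 the list median would lie midway between RFC5 (-0.19) and RPA3 (0.05), so the sign of this median rests on RAD17.

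Among the mediators that hold CHK1 near ATR, CLSPN and TIMELESS were called lower and TIPIN was not called. Claspin, encoded by CLSPN (ENSG00000092853.13, chr1:35720218-35769978, minus strand), is the adaptor on which ATR phosphorylates CHK1. It was at 72.1, 68.3, 81.1, 75.9 and 71.4 CPM in siCtrl replicates 1 to 5 and at 56.4, 53.9, 60.1, 57.4 and 58.1 CPM in siDDX41 replicates 1 to 5. Replicate 3 was the highest library in both groups, and the groups were apart. CLSPN fell from 73.8 ± 4.91 to 57.2 ± 2.30 CPM (SD, n = 5 each), with a log2 fold change of -0.37 (SE 0.04, edgeR adjusted p = 4.92e-09). TIMELESS (ENSG00000111602.11, chr12:56416363-56449426, minus strand), a subunit of the fork protection complex, was at 209, 192, 204, 199 and 200.4 CPM in siCtrl and at 188, 188, 179, 189.7 and 189 CPM in siDDX41 replicates 1 to 5. The ranges were just apart, and siDDX41 replicate 3 was below the other knockdown libraries. Its log2 fold change of -0.10 (SE 0.03, edgeR adjusted p = 0.00154) became -0.09 without siDDX41 replicate 3, with edgeR adjusted p = 0.0108, so that the call was lost. TIPIN (ENSG00000075131.9, chr15:66336191-66386746, minus strand), the partner of TIMELESS, was at 31.0, 30.7, 29.4, 32.0 and 29.1 CPM in siCtrl and at 35.0, 31.4, 33.8, 33.6 and 31.0 CPM in siDDX41 replicates 1 to 5. The groups overlapped, and TIPIN was not called (log2 fold change 0.11, SE 0.04, edgeR adjusted p = 0.0219). Without siDDX41 replicate 5 it was called, with a log2 fold change of 0.14 and edgeR adjusted p = 0.00897. It was also called with the threshold at an adjusted p of 0.05. The pseudogene RPL9P25 lies wholly inside the exons of TIPIN on the same strand. It makes up 21.1% of TIPIN's exon bases and is listed at 0 counts in all 10 libraries. How reads in these shared bases were assigned is not given. The differences between the fold changes of these mediators were not tested.

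Promoters were searched on both strands for the E2F-type letters TTTCCCGC, TTTCGCGC, TTTGCCGC and TTTGGCGC, since E2F factors are known to drive genes of DNA replication. At least 1 of these occurs in 3.31% of all promoters and in those of 6.31% of the 11491 tested genes with an entry. Among the 9 matched genes they occur in TOPBP1, CLSPN and TIPIN, whose promoters are printed to show where the letters lie, with the match in capitals. The promoters are chr3:133661892-133662191, chr1:35769929-35770228 and chr15:66356636-66356935, all on the minus strand, and the last is 1 of 2 entries for TIPIN. The entries printed for TOPBP1 and TIPIN lie wholly inside the annotated genes. The other TIPIN entry, chr15:66386668-66386967 at the annotated start of the gene, holds 0 of these matches.
TOPBP1 promoter: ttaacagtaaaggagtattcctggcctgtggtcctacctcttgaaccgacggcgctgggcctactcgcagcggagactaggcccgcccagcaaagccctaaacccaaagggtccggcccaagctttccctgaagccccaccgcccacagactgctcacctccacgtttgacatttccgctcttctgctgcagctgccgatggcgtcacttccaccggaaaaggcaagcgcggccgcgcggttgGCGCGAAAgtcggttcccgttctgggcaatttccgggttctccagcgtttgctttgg
CLSPN promoter: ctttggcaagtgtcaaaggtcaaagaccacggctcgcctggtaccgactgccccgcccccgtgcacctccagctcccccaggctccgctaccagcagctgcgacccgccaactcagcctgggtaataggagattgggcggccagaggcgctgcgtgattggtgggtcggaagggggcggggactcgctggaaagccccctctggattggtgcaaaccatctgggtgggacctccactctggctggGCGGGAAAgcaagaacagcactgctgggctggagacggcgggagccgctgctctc
TIPIN promoter: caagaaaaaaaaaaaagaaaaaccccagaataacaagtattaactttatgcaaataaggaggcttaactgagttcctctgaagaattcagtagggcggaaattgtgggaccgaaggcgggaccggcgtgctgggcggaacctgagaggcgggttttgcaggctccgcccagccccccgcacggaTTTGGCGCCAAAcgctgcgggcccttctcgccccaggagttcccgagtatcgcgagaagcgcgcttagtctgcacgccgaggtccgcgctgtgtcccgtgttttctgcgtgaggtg
The match in TOPBP1 ends at the start of its RefSeq entry and that in CLSPN spans the start of its entry, while TIPIN holds 2 matches that overlap as a palindrome, from 66 to 55 bases before the start of its entry. TOPBP1 and CLSPN were called lower and TIPIN was not called. Over the 725 tested genes with such letters, 29.0% were called higher and 35.0% lower, with a median log2 fold change of -0.03. Over the 10766 tested genes without them these shares were 32.6% and 33.5%, with a median of 0.01. A match of letters is not a measure of binding.

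CHEK1 (ENSG00000149554.12, chr11:125625163-125676255, plus strand) encodes CHK1, the effector kinase that ATR phosphorylates. It was at 64.2, 61.5, 63.4, 64.8 and 60.2 CPM in siCtrl and at 58.0, 55.8, 60.0, 60.7 and 54.9 CPM in siDDX41 replicates 1 to 5. The groups overlapped, since siDDX41 replicate 4 was above siCtrl replicate 5. CHEK1 was called lower with a log2 fold change of -0.12 (SE 0.04, edgeR adjusted p = 0.00473), a decrease of 7.81%. This call depended on single libraries. It was lost without siCtrl replicate 1 (edgeR adjusted p = 0.0143), siCtrl replicate 4 (0.0158), siDDX41 replicate 1 (0.0103), siDDX41 replicate 2 (0.0178) or siDDX41 replicate 5 (0.0236), with log2 fold changes from -0.12 to -0.10. It was also lost with the Wald test of DESeq2 (log2 fold change -0.11, adjusted p = 0.0185), and the edgeR and DESeq2 adjusted p-values over all 16 alternatives ranged from 0.00199 to 0.0236. The closest profiles to CHEK1 were those of GGH (distance 0.0778), AFTPH (0.0884) and KPNB1 (0.0885), whose log2 fold changes were -0.11, -0.12 and -0.11. Here too, similar fold changes follow from the choice by distance. The ratio of ATR to CHEK1 in CPM per kilobase lay between 0.299 and 0.372 in siCtrl libraries and between 0.493 and 0.552 in siDDX41 libraries, without overlap. This ratio restates the values of ATR and CHEK1 given above and is not a separate result.

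WEE1 (ENSG00000166483.10, chr11:9573670-9593457, plus strand) encodes the kinase that places the inhibitory phosphate on CDK1 and CDK2. It was at 95.4, 93.4, 103, 90.4 and 95.6 CPM in siCtrl replicates 1 to 5 and at 113, 113, 113, 112 and 105 CPM in siDDX41 replicates 1 to 5. Replicate 3 was the highest control library and replicate 5 the lowest knockdown library, and the groups were just apart. WEE1 rose by 16.2%, with a log2 fold change of 0.22 (SE 0.03, edgeR adjusted p = 1.61e-06).

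Levels of different genes were compared per kilobase of the canonical transcript. In siCtrl libraries the order from high to low was TIMELESS (38.9 ± 1.22 CPM per kilobase, SD, n = 5 here and below), TOPBP1 (33.9 ± 0.781), WEE1 (26.7 ± 1.34), TIPIN (17.6 ± 0.691), CHEK1 (15.2 ± 0.461), RAD9A (11.3 ± 0.643), CLSPN (8.67 ± 0.577), ETAA1 (8.07 ± 0.374) and ATR (5.02 ± 0.426). CLSPN and ETAA1 did not differ beyond their spread, and ATR was below all other tested genes of the pathway. In siDDX41 libraries ATR, at 7.39 ± 0.214 CPM per kilobase, was between RAD9A (8.06 ± 0.495) and ETAA1 (7.14 ± 0.466), with CLSPN lowest at 6.72 ± 0.270. In this order RAD9A and ATR, ATR and ETAA1, and ETAA1 and CLSPN overlapped in their single libraries, as did WEE1 (31.0 ± 0.953) and TOPBP1 (29.9 ± 0.709). TIMELESS (36.2 ± 0.827), TIPIN (19.1 ± 0.962) and CHEK1 (14.0 ± 0.614) kept their ranks.

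**Figure D3:**
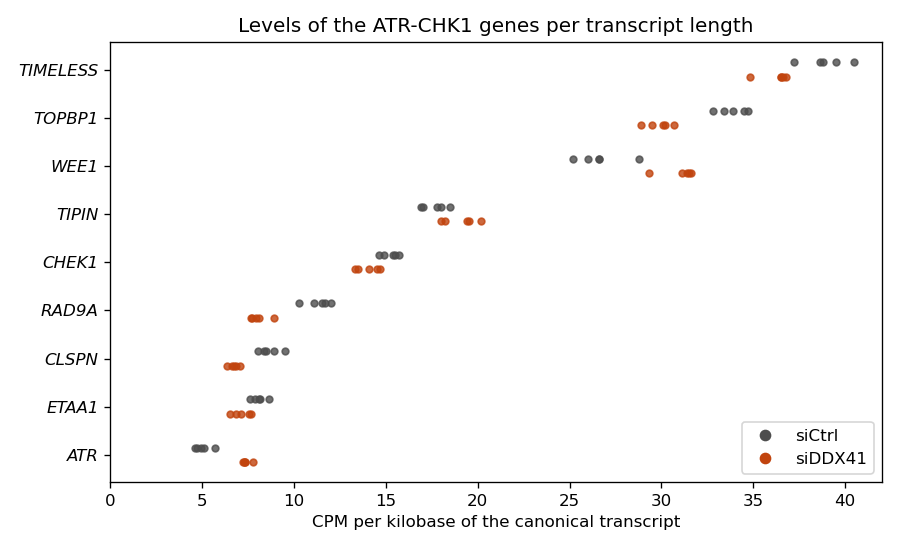
CPM per kilobase of the canonical transcript (x axis) of the 9 tested ATR-CHK1 genes, ordered by the siCtrl mean, with 1 point per siCtrl (grey) or siDDX41 (orange) library. ATR has the lowest siCtrl values, and its siDDX41 values reach those of ETAA1 and RAD9A.

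Genes that act on or with the pathway were read from the same fit. Over all tested genes, 30.3% were called higher and 32.1% lower. Of 10 genes of CDK control downstream of CHK1 and WEE1, all tested, 1 was higher and 6 were lower, with a median log2 fold change of -0.26. Called in either direction were 70.0% of them, against 62.4% of all tested genes. The phosphatase gene CDC25A, whose product CHK1 marks for destruction, was at 54.0, 52.7, 50.8, 52.0 and 48.7 CPM in siCtrl and at 66.4, 56.6, 63.5, 63.3 and 62.7 CPM in siDDX41 replicates 1 to 5. The groups were apart, and CDC25A rose with a log2 fold change of 0.28 (SE 0.04, edgeR adjusted p = 4.29e-07). CDC25B, another phosphatase gene of the family, was at 178, 176, 167, 167 and 178 CPM in siCtrl and at 102, 107, 112, 104 and 105 CPM in siDDX41 replicates 1 to 5, and its groups were far apart. It fell by 0.71 on the log2 scale (SE 0.03, edgeR adjusted p = 2.32e-18), and the kinase gene CDK2 fell by 0.49 (SE 0.03, edgeR adjusted p = 1.49e-15).

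Of 12 genes for the turnover and dephosphorylation of CHK1, claspin and WEE1, all tested, 3 were higher and 5 lower, with a median log2 fold change of -0.06. The share called, 66.7%, was near the 62.4% of all tested genes. PLK1, a mitotic kinase that primes claspin and WEE1 for degradation, was at 174, 174, 162, 171 and 181 CPM in siCtrl and at 96.3, 104, 108, 106 and 104 CPM in siDDX41 replicates 1 to 5. The groups were apart, and the log2 fold change was -0.73 (SE 0.03, edgeR adjusted p = 6.63e-18). PPM1D, a phosphatase that removes activating phosphates from CHK1, fell by 0.41 (SE 0.03, edgeR adjusted p = 3.21e-12). FBXW11, an F-box protein of the SCF ubiquitin ligases, had a log2 fold change of 0.14 (SE 0.03, edgeR adjusted p = 1.98e-04), and its groups were apart. The ubiquitin ligase gene HERC2 had a log2 fold change of 0.28 (SE 0.08, edgeR adjusted p = 0.00233), with groups that overlapped, at 14.4 to 18.6 CPM in siCtrl and 17.2 to 22.1 CPM in siDDX41 libraries. With the replicate number as a block its log2 fold change was also 0.28, but the call was lost, and 2 genes of this list were called higher.

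Among the 10 tested genes of fork remodelling and restart, 2 were higher and 3 lower, with a median log2 fold change of -0.03. The translocase gene HLTF fell by 0.36 (SE 0.04, edgeR adjusted p = 2.20e-10) and the helicase gene BLM by 0.23. RAD18, a ubiquitin ligase for PCNA, had a log2 fold change of 0.30, and the primase-polymerase gene PRIMPOL of 0.23. The exons of HLTF share 27.4% of their bases with GYG1, and those of PRIMPOL 18.6% with CENPU, in each case on the other strand.

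Of 12 genes of ATM-CHK2 and double strand break signaling, 11 were tested, with 4 higher, 5 lower and a median log2 fold change of -0.07. In this list 81.8% were called, against 62.4% of all tested genes. RNF168, a ubiquitin ligase acting on chromatin at breaks, was at 35.7, 34.3, 37.3, 38.7 and 37.4 CPM in siCtrl and at 57.0, 54.1, 55.1, 57.0 and 56.5 CPM in siDDX41 replicates 1 to 5. The groups were apart, and its log2 fold change of 0.61 (SE 0.04, edgeR adjusted p = 1.14e-14) was close in size to that of ATR. The histone gene H2AX fell by 0.41 and NBN, a subunit of the MRN complex, by 0.27, with edgeR adjusted p = 1.90e-05 and 5.22e-09. PRKDC, the DNA-PK catalytic subunit and a relative of ATR, had a log2 fold change of 0.33 (SE 0.08, edgeR adjusted p = 0.00595). It was at 419, 416, 532, 504 and 426 CPM in siCtrl and at 605, 599.9, 591, 516 and 582 CPM in siDDX41 replicates 1 to 5, so that siCtrl replicate 3 was above siDDX41 replicate 4. The call of PRKDC was lost without siCtrl replicate 1, 2 or 5 and without siDDX41 replicate 1, 2, 3 or 5, with edgeR adjusted p from 0.013 to 0.0161. It was also lost without the filter on low counts (edgeR adjusted p = 0.0129) and with the replicate number as a block. ATM, the kinase of the parallel pathway, was not called (log2 fold change 0.08, SE 0.07, edgeR adjusted p = 0.347). Without siCtrl replicate 3 it was called higher, with a log2 fold change of 0.15 and edgeR adjusted p = 0.00195. MDC1 is listed at 0 counts in all 10 libraries, as is TUBB, a tubulin gene whose exons share 13 bases with those of MDC1 on the other strand. Since tubulin is made in every dividing cell, these 0 counts are no measure of transcript level. ATM, MDC1, RAD1 and RAD17 were named after their values were seen.

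Kinases of the ATR family need the TTT complex and the RUVBL ATPases for their folding. Of the 8 tested genes for related kinases and these chaperones, 2 were higher and 3 lower, with a median log2 fold change of 0.07. In this list 62.5% were called, near the 62.4% of all tested genes. Without siCtrl replicate 3 the number called higher was 4, as it was with the Wald test of DESeq2. RUVBL2 was at 112, 129, 102, 111 and 123 CPM in siCtrl and at 174, 156, 178, 168 and 169.8 CPM in siDDX41 replicates 1 to 5. The groups were apart, and the log2 fold changes were 0.55 for RUVBL2 (SE 0.06, edgeR adjusted p = 8.69e-07) and 0.25 for RUVBL1 (SE 0.03, edgeR adjusted p = 2.35e-08). The TTT genes TTI1 and TTI2 fell by 0.28 and 0.22. The groups were apart for TTI1 and overlapped for TTI2, at 19.3 to 23.9 CPM in siCtrl and 17.9 to 20.4 CPM in siDDX41 libraries, and 24.5% of the exon bases of TTI2 are shared with MAK16 on the other strand. TELO2, also of the TTT complex and named after its values were seen, was not called (log2 fold change -0.0022, SE 0.07, edgeR adjusted p = 0.979).

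Several genes of the pathway are transcribed in a cell-cycle dependent way, and cell-cycle genes were therefore read beside them. Of 16 tested G1/S genes, 2 were higher and 10 lower, with a median log2 fold change of -0.30. This is 75.0% called, against 62.4% of all tested genes. E2F1 and GINS2 fell by 0.75 and 0.73, while CDC6 and MCM6 had log2 fold changes of 0.24 and 0.11. Of 16 tested G2/M genes, 0 were higher and 15 lower, which is 93.8% called, against 62.4% of all tested genes. The median log2 fold change of the G2/M genes was -0.37. Their summed level was between 4742 and 4964 CPM in siCtrl and between 3461 and 3602 CPM in siDDX41 libraries. CENPE and TOP2A had the largest decreases, with log2 fold changes of -0.79 (SE 0.06, edgeR adjusted p = 5.21e-09) and -0.74 (SE 0.03, edgeR adjusted p = 8.74e-20). PLK1 and CCNB1 are counted both here and in a list above, as is CCNE2 among G1/S genes. In these bulk libraries, fewer cells in a phase and less RNA per cell cannot be told apart, and the part of the cell cycle in the changes of the ATR-CHK1 genes was not tested.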

How the data were processed

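Stranded mRNA libraries were sequenced by the authors in single-read mode and demultiplexed with bcl2fastq 2.19. Reads were aligned to hg38 by STAR 2.7 using Gencode 25, and featureCounts 1.6 gave the count per gene. The deposited values are whole-number read counts per gene and library, not normalized. Which strand was counted, and what was done with reads matching several places or genes, is not given in the sources used here. Groups and replicate numbers come from the labels. The methods of the study mention a larger number of pooled samples than the 10 used here.

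Gene names, positions and canonical transcripts were taken from GENCODE 44 on GRCh38, the same build, joined by identifier without version (98.7% of tested genes matched). Counts were filtered with filterByExpr by group, scaled by TMM and compared with edgeR 4.0.16 (robust glmQLFit and glmQLFTest, group as the single term) in R 4.3.3, with Benjamini-Hochberg adjustment over all 16143 tested genes. Standard errors were derived from the F statistic. DESeq2 1.42.0 was used for alternatives, and tables, the permutation test and figures were made in Python 3.11.15 with scipy 1.17.1, pandas 2.3.3 and matplotlib 3.10.9. Within groups, the counts of 2 libraries differed beyond counting noise in all 20 pairs (1.84 to 6.18 in chi-square per degree of freedom), so that none was a second copy of another. This does not tell separate cultures from separate preparations of the same RNA. With total counts of 21807041 to 24896398, the biological coefficient of variation was 3.65%, and genes with a few counts per library, such as ATRIP, could not be compared.

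The text names the 10 ATR-CHK1 genes and DDX41, from each of 8 pathway lists up to 2 called genes with the largest log2 fold change in each direction, and the 3 closest profiles to ATR and to CHEK1. Of the 40 genes on lists or targeted that this names, 10 overlap in exons with a gene holding 10% or more of their own counts. These are CHEK1, GINS2, HLTF, NBN, PRIMPOL, RAD9A, RHNO1, RPA1, RUVBL1 and TTI2. The exons of CHEK1 share 0.946% of their bases with STT3A, and those of RHNO1 2.27% with TULP3, in each case on the same strand. All shares of exon bases are over the exons of all annotated transcripts of a gene, not the canonical transcript alone. The 10 genes and the lists were chosen with earlier results of these data known. Marker lists served as a check of the cell line. Alternatives varied the scaling, the filter, the test, the threshold, the pairing and the libraries used.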

Additional observations from a re-analysis of the deposited data

Results flagged for a closer look

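Of the 78 groups of 5 libraries examined, for the 39 tested genes of the pathway and its lists named here and DDX41, 6 held a library set apart from the other 4 by more than 0.71 of the group's range. Chance alone sets apart about 1 in 20 groups. In ATR, siDDX41 replicate 3 was at 63.4 CPM and the other knockdown libraries were between 59.1 and 59.9 CPM. In TIMELESS, siDDX41 replicate 3 was at 179 CPM, below the others at 188 to 189.7 CPM. In WEE1, siDDX41 replicate 5 was at 105 CPM, below the others at 112 to 113 CPM. Outside the pathway itself, NBN was at 96.6 CPM in siCtrl replicate 4, above 91.3 to 92.0 CPM in the other control libraries, and at 79.4 CPM in siDDX41 replicate 3, above 75.6 to 76.7 CPM in the other knockdown libraries. PRKDC was at 516 CPM in siDDX41 replicate 4, below 582 to 605 CPM in the others.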

How the results depend on the processing

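With an absolute log2 fold change over 0.25 also required, 1 ATR-CHK1 gene was called higher and 2 were called lower, against 3406 and 4101 of all tested genes, since that threshold leaves out small changes. Leaving out each library in turn gave 2 to 3 genes called higher and 5 to 6 called lower, a median log2 fold change of the tested ATR-CHK1 genes of -0.13 to -0.10, and 4648 to 4823 genes called higher and 4968 to 5121 called lower over all tested genes. Under these 10 alternatives and the 6 that changed the scaling, filter, test, threshold of p or pairing, ATR (0.53 to 0.61), WEE1 (0.20 to 0.24), CLSPN (-0.39 to -0.33), RAD9A (-0.53 to -0.47), TOPBP1 (-0.19 to -0.17) and ETAA1 (-0.20 to -0.14) kept direction and call, while CHEK1 and TIMELESS lost the call under the alternatives given with their values, and TIPIN gained it without siDDX41 replicate 5 and at an adjusted p under 0.05. Over these 16 alternatives and 60 tested genes given with a log2 fold change or a call, 922 values kept direction and call, 23 lost the call, 6 gained it and 9 changed direction. All 9 were of TELO2, which was called in none and had a log2 fold change of -0.0022 in the main fit. Its log2 fold change was 0.0044 with DESeq2 size factors, 0.0027 without the filter and 0.0078 with the Wald test of DESeq2. Blocking by replicate number gave 0.0011. The direction of TELO2 also changed without siCtrl replicate 2 or 5 and without siDDX41 replicate 2, 4 or 5, with values from 0.0063 to 0.0618. Leaving out any other library kept TELO2 negative, with -0.0405 as the lowest value. GGH and AFTPH, among the closest profiles to CHEK1, are among the genes that lost the call. Of the counts of genes called in the 8 related lists, 258 were within 1.5 times the count given and 14 were not, 10 of them with the minimum log2 fold change, and the others were the numbers called higher among the single-stranded DNA binding and clamp genes (4 without siDDX41 replicate 2 and 4 at an adjusted p under 0.05) and among the related kinases and chaperones (4 without siCtrl replicate 3 and 4 with the Wald test of DESeq2). Scaling by DESeq2 size factors or by total counts moved the median log2 fold change of all tested genes by 0.0067 and -0.0115.

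The replicate numbers are shared by both groups, but deviations from the group means correlated between -0.0524 and 0.0446 for same-numbered libraries, so the numbers do not pair them. Of the 5 control replicates, 1 correlated best with the knockdown library of its own number. With the replicate number as a block, 2 ATR-CHK1 genes were called higher and 6 lower with a median log2 fold change of -0.12, against 4790 and 5097 of all tested genes, and the calls of HERC2 (adjusted p = 0.0121) and PRKDC (adjusted p = 0.0285) were lost.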
